A study of Ambystoma mexicanum with 12 samples.

Results

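Blastemas of axolotls treated with retinoic acid (RA) were compared with blastemas of axolotls treated with LE135, on 8 of the 12 Affymetrix arrays of the study. The arrays were chosen by the treatment named in the sample titles, 4 per drug and 1 array per sample, and the 4 arrays of the vehicle dimethyl sulfoxide (DMSO) took no part in the test. All animals were juvenile axolotls (Ambystoma mexicanum) with a mean total length of 8.8 cm, and the labels name no strain, genotype or transgene. Forelimbs were cut through the distal lower arm, drug or vehicle was given from day 7 after the cut, and the blastema was taken on day 14 with little of the stump. Each treatment had 16 animals, and each sample pooled 1 forelimb from each of 4 animals, so the spread between samples is that between pools. No dose is stated in the labels used here. The design text states that RA leads later to limbs duplicated along the shoulder-to-hand (proximodistal) axis and LE135 to truncated ones. The comparison asks which transcripts separate blastemas with these outcomes ahead of them. The sampled blastemas were removed before either outcome could be seen.

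A blastema is the mound of dividing cells under a wound epidermis from which a salamander rebuilds a lost limb. Retinoic acid binds nuclear receptors (RARA, RARB and RARG) that recruit cofactors to target genes, and enzymes of the CYP26 family, which are themselves retinoid targets, break it down. LE135 is known as a synthetic antagonist of RARB. In salamander limbs, retinoic acid gives cells of a distal blastema a more proximal character. MEIS homeodomain proteins mark the proximal limb of vertebrate embryos and HOXA13 marks the hand and foot. In chick and mouse limb buds, the LIM homeodomain proteins LHX2 and LHX9 support outgrowth, together with fibroblast growth factors (FGFs) from the epidermis at the tip.

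The values were deposited log2 levels of 20035 probe sets, of which 10951 carried 1 gene symbol and stood for 8639 genes. Array medians ran from 6.61 to 6.70 and the lowest value was 3.06, so a level under about 4 lay near the bottom of the scale. LE135 4 stood apart. Its mean correlation with the other 3 LE135 arrays was 0.986, against 0.992 to 0.995 for the other 7 arrays with their own groups, and it held 32.4% of the spread within groups. All 24 probe sets for the polyadenylated control transcripts added to the RNA before labelling were lowest on LE135 4, at an average of -1.04 from the mean of the 8 arrays. The other 7 arrays ran from -0.36 (RA 1) to 0.40 on that measure. All 18 probe sets for hybridization controls were also lowest on LE135 4, at an average of -0.19, against -0.03 (RA 1) to 0.06 (RA 4) on the others. Across probe sets, which are not independent replicates, the deviations of LE135 4 from its group mean correlated at 0.61 with those of DMSO 4, an array outside the test. RA 1 correlated with RA 2, and RA 3 with RA 4, at 0.997 and 0.998, against 0.991 to 0.995 across these pairs. RA 3 and RA 4 correlated with LE135 1 to 3 at 0.994 to 0.996, and RA 1 and RA 2 did so at 0.990 to 0.994. Markers of the labelled tissue were present on all 8 arrays: the mean log2 level of 23 genes of mesenchymal blastema cells and fibroblasts was 9.54 to 9.80 in RA and 9.39 to 9.66 in LE135, and that of 35 epidermis genes was 9.90 to 9.97 and 9.72 to 9.96. In such bulk samples, fewer cells of a type and less RNA per cell cannot be told apart.

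Few probe sets passed an adjusted threshold in this comparison. With the spread taken from the 8 arrays alone, 10 of 20035 probe sets (0.0499%) differed after Benjamini-Hochberg adjustment over all of them at a threshold of 0.05 (limma), 6 higher (0.0299%) and 4 lower (0.0200%) in RA, and 9 of the 10 by more than 1.5-fold. With 1 probe set per gene, 5 of the 8639 named genes (0.0579%) passed, 3 higher (0.0347%) and 2 lower (0.0232%) in RA. LMO1 and LHX2 were lower in RA, while NRIP1, NEBL and PIF1 were higher in RA. At an unadjusted p under 0.05 the count was 1941 (9.69%), and the 4 RA values did not overlap with the 4 LE135 values in 1388 probe sets (6.93%), 751 with RA higher (3.75%) and 637 with RA lower (3.18%). Below, "adjusted p" is the p of this test adjusted over all 20035 probe sets, differences are RA minus LE135 on the log2 scale, and "fell" or "rose" (in RA relative to LE135) is kept for what passed it.

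**Figure D1:**
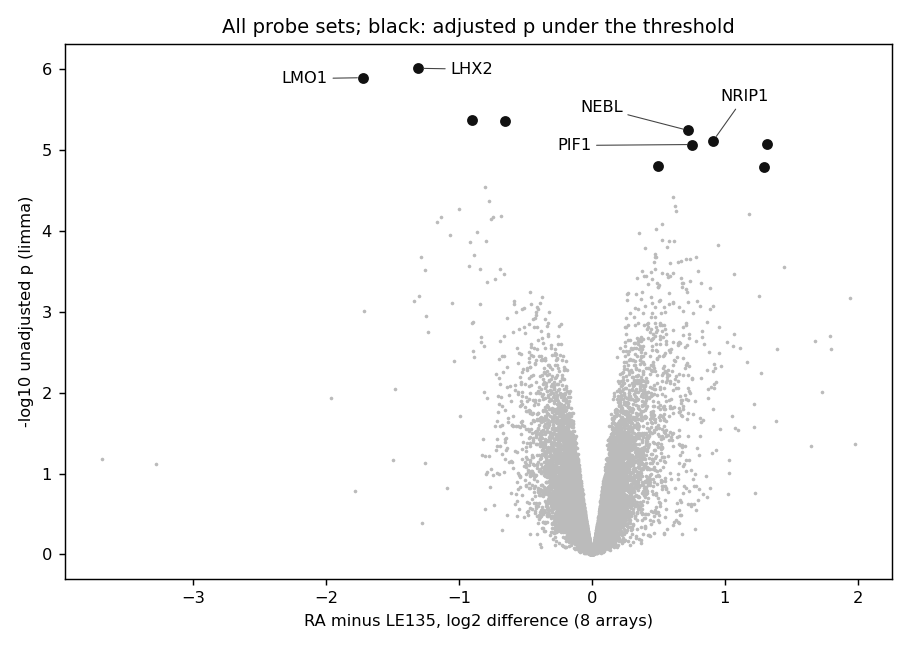
Each point is 1 of 20035 probe sets, with the log2 difference RA minus LE135 over 8 arrays on the horizontal axis and the negative log10 of the unadjusted limma p on the vertical axis. The 10 black points passed the adjusted threshold, with LMO1 (-1.73) and LHX2 (-1.31) on the left and NEBL (0.73), PIF1 (0.76) and NRIP1 (0.91) among those on the right.

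LMO1 had the largest difference of the 10. It encodes a LIM-only protein, a nuclear adaptor that binds partners of LIM homeodomain factors. Its log2 levels were 5.79, 5.49, 6.13 and 6.15 in RA and 7.60, 7.56, 7.57 and 7.73 in LE135. Every RA array lay below every LE135 array, and the RA arrays were the more scattered. LMO1 fell from 7.61 ± 0.08 (SD, n = 4) in LE135 to 5.89 ± 0.32 in RA, by 1.73 (SE 0.14, 95% interval -2.05 to -1.40, adjusted p = 0.0128), which is 3.31-fold.

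LHX2, the LIM homeodomain factor, showed the same order of groups. Its levels were 7.22, 7.05, 6.98 and 7.26 in RA and 8.53, 8.36, 8.22 and 8.63 in LE135, with no overlap and a similar spread in both groups. The mean was 7.13 ± 0.14 (SD, n = 4) in RA and 8.44 ± 0.18 in LE135. LHX2 thus fell by 1.31 (SE 0.11, 95% interval -1.55 to -1.07, adjusted p = 0.0128), or 2.48-fold. Leaving out each of the 8 arrays in turn kept LMO1 and LHX2 past the threshold in 4 of 8 fits each, with adjusted p up to 0.107 for both, reached without LE135 1.

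NRIP1 encodes a corepressor of nuclear receptors, retinoic acid receptors among them, and is known in mammalian cells as a retinoic acid target. Its levels were 9.43, 9.47, 9.70 and 9.66 in RA and 8.63, 8.78, 8.74 and 8.45 in LE135. The RA arrays were the higher group, with a gap to the highest LE135 array. NRIP1 rose from 8.65 ± 0.15 (SD, n = 4) to 9.56 ± 0.13, by 0.91 (SE 0.10, 95% interval 0.70 to 1.13, adjusted p = 0.0214).

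NEBL encodes nebulette, an actin-binding protein of muscle Z-discs and, as a shorter form, of focal adhesions. Its levels were 7.37, 7.38, 7.37 and 7.39 in RA and 6.68, 6.62, 6.49 and 6.82 in LE135. The RA arrays were almost level with each other and all lay above LE135. NEBL rose from 6.65 ± 0.13 (SD, n = 4) to 7.38 ± 0.01, by 0.73 (SE 0.07, adjusted p = 0.0214). The mean level of 34 skeletal muscle genes spread widely inside RA (8.40, 8.62, 6.60 and 7.35) and ran from 7.16 to 8.02 in LE135. The part of muscle in the NEBL difference was not tested.

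PIF1 encodes a DNA helicase. Its called probe set was at 6.80, 6.68, 6.90 and 6.63 in RA and at 5.99, 5.95, 5.91 and 6.13 in LE135, without overlap, and rose by 0.76 (SE 0.08, adjusted p = 0.0214). That probe set is of the kind whose probes can match more than 1 transcript, by its Affymetrix suffix. The other 4 PIF1 probe sets lay near the bottom of the scale, at means of 3.25 to 3.66, with differences between -0.01 and 0.09 that did not pass. Which transcript the called PIF1 probe set reports was therefore not settled. NRIP1, NEBL and PIF1 each stayed past the threshold in 1 of the 8 fits that left out an array, the one without LE135 4, and reached adjusted p of 0.111, 0.111 and 0.151 in others.

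The other 5 probe sets carried no gene symbol. Of these, axo08870-f_at rose by 1.32 (SE 0.14), with RA at 8.19, 7.87, 7.46 and 7.74 and LE135 at 6.45, 6.50, 6.46 and 6.60, and axo01795-f_at rose by 1.29 (SE 0.15), with RA from 6.77 to 7.34 and LE135 from 5.37 to 5.88. A smaller rise, 0.50 (SE 0.06), was seen for axo13881-f_at. The probe sets axo02853-f_at and axo10418-f_at fell by 0.90 (SE 0.09) and 0.65 (SE 0.06). Groups did not overlap in any of these 5.

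**Figure D2:**
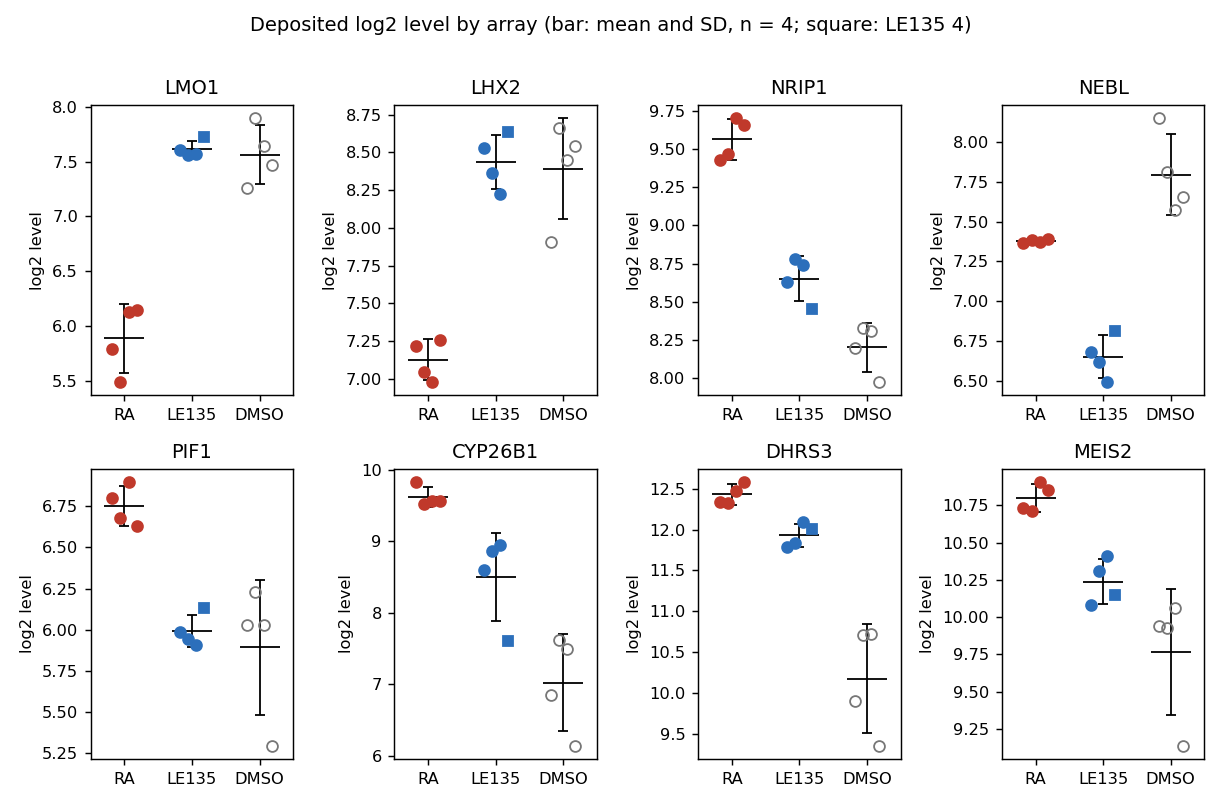
Deposited log2 level (vertical axis) of 8 genes on each RA, LE135 and DMSO array. Points are arrays, the square is LE135 4, and bars give the mean and SD (n = 4); LMO1 and LHX2 sit lower in RA than in LE135 on every array, and the other 6 genes sit higher in RA on every array, with CYP26B1 on LE135 4 at 7.61.

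The DMSO arrays, which both drugs share as their control, place these levels. In LMO1 the LE135 mean of 7.61 lay beside the DMSO mean of 7.56, and the RA mean of 5.89 lay below every DMSO array. LHX2 had means of 8.39 in DMSO, 8.44 in LE135 and 7.13 in RA. For NRIP1 the DMSO mean was 8.20, so that both drug means lay above it, LE135 by 0.45 and RA by 1.36. For NEBL the DMSO mean was 7.79, with RA below it by 0.42 and LE135 below it by 1.14. The called PIF1 probe set had means of 5.89 in DMSO, 5.99 in LE135 and 6.75 in RA, with every RA array above every DMSO array. In LMO1, LHX2 and PIF1 the LE135 and DMSO means thus lay side by side. In NRIP1 and NEBL both drug means lay away from DMSO, on the same side. The tests of each drug against DMSO are not given here.

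Among nuclear receptors and cofactors, NRIP1 was the 1 gene of 13 that passed. The groups did not overlap in 3 of the 13 (23.1%), all higher in RA, against 7.34% of the 8639 named genes (3.79% with RA higher and 3.55% with RA lower), and the list median was 0.22 against -0.01. RARG, the gamma receptor, was at 9.37, 9.40, 9.32 and 9.33 in RA and at 9.09, 9.11, 9.07 and 8.89 in LE135. The RA group was the higher and the more even, and the difference of 0.31 (SE 0.07) had an adjusted p of 0.167, while a second RARG probe set differed by 0.02. RARA was near the bottom of the scale, at 3.84 ± 0.11 (SD, n = 4) in RA and 3.77 ± 0.12 in LE135, where a change could hardly be seen. The corepressor NCOR1 did not overlap either, at a difference of 0.43 (adjusted p = 0.498), with LE135 4 at 7.95 and the other LE135 arrays from 8.71 to 8.82. Other NCOR1 probe sets overlapped, at 0.02 and 0.39. RARB had no named probe set.

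No gene of retinoid metabolism and transport passed among 19 measured (limma), where 4 were higher and 2 lower at an unadjusted p under 0.05, against 9.70% of the named genes (447 higher and 391 lower of 8639). The list median was 0.02. CYP26B1, an oxidase that removes retinoic acid, had the largest difference of the list. Its levels were 9.83, 9.51, 9.56 and 9.56 in RA and 8.60, 8.86, 8.95 and 7.61 in LE135. The groups did not overlap, but LE135 4 lay well below the other LE135 arrays, and the difference of 1.11 (SE 0.27) had an adjusted p of 0.213. Without LE135 4 the difference was smaller, 0.82 (SE 0.11), and passed (adjusted p = 0.0421).

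DHRS3, a reductase that turns retinaldehyde back into retinol, was at 12.34, 12.32, 12.48 and 12.58 in RA and from 11.79 to 12.09 in LE135. RA was the higher group without overlap, at a difference of 0.50 (SE 0.09, adjusted p = 0.125). CYP26A1 was high under both drugs, from 12.45 to 12.77 in RA and from 12.10 to 12.54 in LE135, against 4.66 to 8.82 in DMSO. The RA and LE135 ranges of CYP26A1 overlapped, with a difference of 0.32 (95% interval 0.05 to 0.58, adjusted p = 0.430). The carrier CRABP2 and ALDH1A3, which makes retinoic acid, differed by 0.20 and -0.20 (adjusted p = 0.611 and 0.774), and both drug groups of both genes lay above every DMSO array. Groups did not overlap in 21.1% of the list, 2 genes higher and 2 lower in RA, against 7.34% of the named genes. CYP26C1 and RDH14, named after their values were seen, were the 2 genes of the list that did not overlap with RA lower, at -0.18 and -0.13.

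Proximal genes gave small differences. None of 10 passed (limma), 4 were higher in RA at an unadjusted p under 0.05 and none lower (9.70% of the named genes in either direction), and the list median was 0.20. MEIS2 was at 10.73, 10.71, 10.91 and 10.85 in RA and at 10.08, 10.31, 10.41 and 10.15 in LE135. The groups were apart, with a difference of 0.56 (SE 0.09, adjusted p = 0.0927), and 2 other MEIS2 probe sets differed by 0.64 and 0.41 without passing. MEIS1 lay between 8.03 and 8.06 on all RA arrays and between 7.44 and 7.94 in LE135, a difference of 0.35 (SE 0.10, adjusted p = 0.295). For MEIS1 and MEIS2, every RA and every LE135 array lay above every DMSO array, which reached 7.18 and 10.06. PBX3, a partner of MEIS proteins, and the homeobox gene ZFHX4 differed by 0.36 and 0.46 (adjusted p = 0.498 and 0.384), with overlap. HOXA9, HOXA11 and the cell surface gene PROD1 had no named probe set.

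The distal list had the lowest median of the 16 lists described. Of 17 measured, 2 fell (LMO1 and LHX2) and none rose, and the groups did not overlap in 10 (58.8%), 8 lower and 2 higher in RA, against 7.34% of the 8639 named genes. The list median was -0.65 (-0.38 without LE135 4), against -0.01 over all named genes. The mean level of the 17 genes was 6.85, 6.60, 6.60 and 6.74 in RA and 7.28, 7.19, 7.03 and 7.18 in LE135. All the lists were written with earlier results of these data known, and LMO1, LHX2 and LHX9 were among the genes known from them. Neither this list nor any other is therefore independent evidence of its direction.

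LHX9, the paralogue of LHX2, was at 6.70, 5.95, 6.06 and 6.82 in RA and at 7.74, 7.44, 7.59 and 7.91 in LE135. The RA arrays were the lower and the more scattered, and the difference of -1.29 (SE 0.21) missed the threshold (adjusted p = 0.102). SALL1, a zinc-finger repressor of the limb tip and other organs, was at 5.12, 4.55, 5.11 and 5.67 in RA and at 6.83, 6.65, 6.45 and 5.89 in LE135. Here RA 4 and LE135 4 came close to each other, at a difference in means of -1.34 (SE 0.26, adjusted p = 0.146), and a second SALL1 probe set differed by -0.44.

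HOXA13 was at 3.77, 3.39, 3.84 and 3.67 in RA and at 5.62, 4.35, 5.14 and 4.56 in LE135. All RA values lay near the bottom of the scale, so the difference of -1.25 (SE 0.26, adjusted p = 0.164) may understate the true one. ZIC5, a zinc-finger transcription factor, had the same shape, from 3.71 to 4.16 in RA and from 4.71 to 5.36 in LE135 (difference -1.13, SE 0.16, adjusted p = 0.0681). MSX2, a homeobox gene of the limb tip, was at 6.53 ± 0.28 (SD, n = 4) in RA and 7.37 ± 0.26 in LE135, a difference of -0.84 (adjusted p = 0.146). None of these 5 genes (LHX9, SALL1, HOXA13, ZIC5 and MSX2) passed without LE135 4.

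Not all distal genes followed this order. DLX6, a distal homeobox gene, was at 6.84, 6.76, 6.63 and 7.02 in RA and at 6.97, 7.00, 6.99 and 6.80 in LE135, overlapping, with a difference of -0.12 (95% interval -0.33 to 0.09, adjusted p = 0.713). In DMSO it was at 7.74 to 8.65, above both drugs. EPHA7, an ephrin receptor, was the higher in RA, from 8.21 to 8.59 against 7.65 to 7.91 in LE135 (difference 0.62, SE 0.09, adjusted p = 0.0857), while a second EPHA7 probe set at the bottom of the scale differed by -0.18. SALL4, a paralogue of SALL1 named after its values were seen, also did not overlap with RA higher, at 0.68 (SE 0.12, adjusted p = 0.118).

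**Figure D3:**
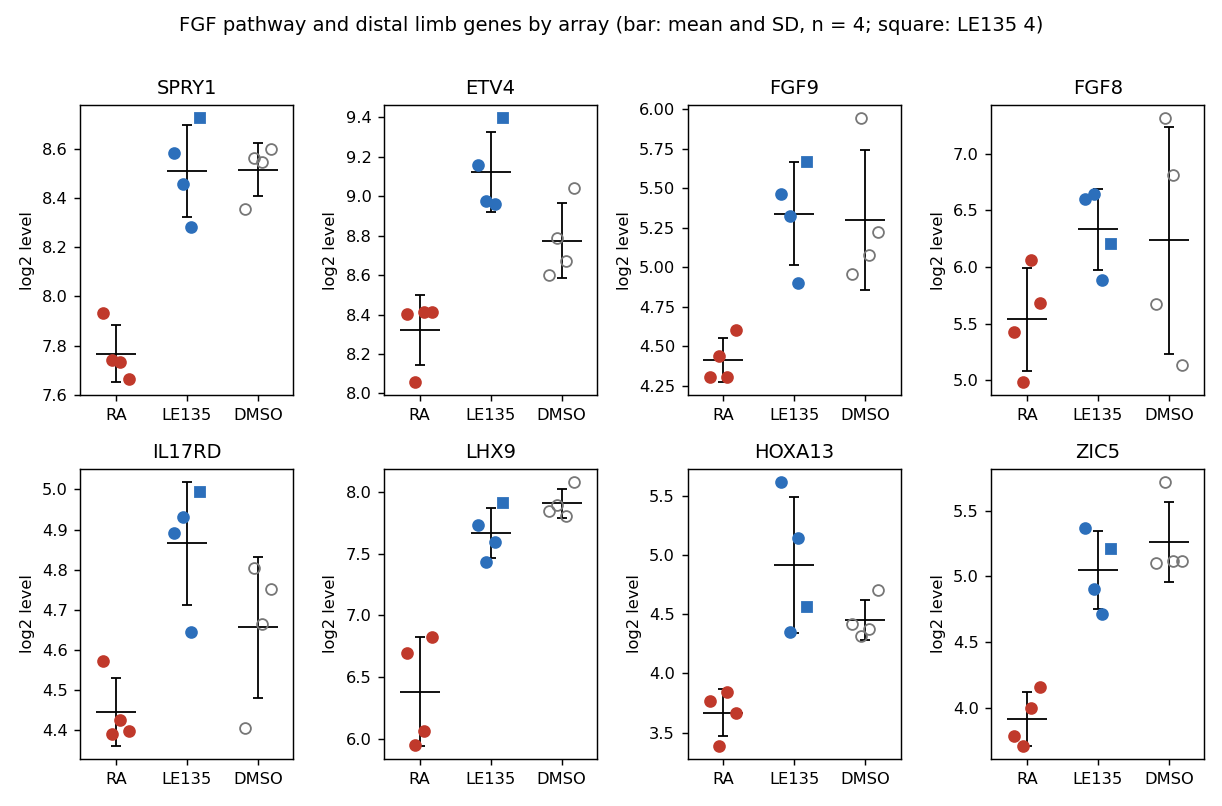
Deposited log2 level (vertical axis) of 5 FGF pathway and 3 distal limb genes on each array, with mean and SD (n = 4) and LE135 4 as a square. RA lies below LE135 on every array in all of them except FGF8, where RA 3 (6.06) lies above LE135 3 (5.88), and SPRY1 in RA runs from 7.66 to 7.93 against 8.28 to 8.73 in LE135.

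Among FGF ligands, receptors and genes known to respond to FGF signalling, 8 of 15 had the lower mean in RA. Of the 8639 named genes, 4648 had the lower mean in RA, so this count lay near the share of all named genes. None of 15 passed with all 8 arrays (limma), 5 were lower and none higher at an unadjusted p under 0.05, and the list median was -0.11. The groups did not overlap in 4 (26.7%), all lower in RA, against 3.55% of the named genes with RA lower. This list too was written with earlier results of these data known, so that share is no independent evidence. An unadjusted p under 0.05 was reached by 9.70% of the named genes in either direction. The mean level of the 15 genes was 6.20 to 6.28 in RA and 6.36 to 6.57 in LE135.

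SPRY1, an inhibitor that FGF signalling induces, was at 7.93, 7.74, 7.73 and 7.66 in RA and at 8.58, 8.46, 8.28 and 8.73 in LE135. RA was the lower group on every array, at -0.75 (SE 0.10, adjusted p = 0.0681), and SPRY1 passed without LE135 4 at -0.67 (adjusted p = 0.0452). ETV4, an ETS transcription factor induced by FGFs in the limb bud, was at 8.40, 8.06, 8.41 and 8.41 in RA and at 9.16, 8.97, 8.96 and 9.39 in LE135. This ETV4 probe set was lower on every RA array, at -0.80 (SE 0.12, adjusted p = 0.0857), and did not pass without LE135 4 (-0.71, adjusted p = 0.0609). The second ETV4 probe set differed by -0.73 (adjusted p = 0.115) and passed without LE135 4, at -0.60 (SE 0.08, adjusted p = 0.0421).

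FGF9, a ligand, was at 4.31, 4.43, 4.31 and 4.60 in RA and at 5.46, 5.33, 4.90 and 5.67 in LE135, without overlap, a difference of -0.93 (SE 0.16, adjusted p = 0.113). FGF8 is a ligand of the limb bud ridge in chick and mouse. Its levels were 5.43, 4.98, 6.06 and 5.68 in RA and 6.60, 6.64, 5.88 and 6.20 in LE135. The FGF8 groups overlapped through RA 3 and LE135 3, at -0.79 (SE 0.25, adjusted p = 0.336), and FGF8 in DMSO ran from 5.14 to 7.31, wider than both drugs together. IL17RD, another feedback inhibitor of FGF signalling, differed by -0.42 (SE 0.09, adjusted p = 0.163) without overlap. The remaining 10 genes, receptors and the ligands FGF10, FGF18 and FGF2 among them, differed by -0.21 to 0.26.

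In the hedgehog pathway none of 8 genes passed (limma), and 3 were lower in RA at an unadjusted p under 0.05, the same 3 that did not overlap (37.5%), where 9.70% of the named genes reached that p and 7.34% did not overlap. They were GLI3, a transcription factor of the pathway, at -0.44 (adjusted p = 0.168), the ligand IHH at -0.35 (adjusted p = 0.269) and the co-receptor BOC at -0.32 (adjusted p = 0.250). The list median was 0.03, since the other 5 differed by -0.02 to 0.17. SHH had no named probe set.

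None of 21 WNT pathway genes passed (limma), with a median of -0.01. At an unadjusted p under 0.05, 2 were higher and 3 lower, against 9.70% of the named genes in either direction. APCDD1, an inhibitor of WNT signalling, was at 9.93, 9.83, 9.76 and 9.95 in RA and at 9.31, 9.31, 8.80 and 8.91 in LE135. RA was the higher group without overlap, at 0.78 (SE 0.13, adjusted p = 0.102). The secreted inhibitor WIF1 and the receptor FZD8 did not overlap with RA lower, at -0.68 and -0.53 (adjusted p = 0.370 and 0.331).

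None of 28 BMP and TGF-beta genes passed with 8 arrays (limma), with a median of 0.00. At an unadjusted p under 0.05, 3 were higher and 4 lower, against 9.70% of the named genes in either direction. TGFB1, a ligand that promotes matrix production, had the largest difference of them. Its levels were 10.98, 11.10, 10.69 and 10.83 in RA and 9.82, 9.98, 9.24 and 9.81 in LE135. All RA arrays were higher, by 1.19 on average (SE 0.16, 95% interval 0.81 to 1.56), a 2.28-fold difference that missed the threshold (adjusted p = 0.0681, and 0.0615 without LE135 4). The receptor BMPR1B differed by 0.56 and the BMP target ID3 by -0.46 (adjusted p = 0.274 and 0.207), both without overlap. SOSTDC1, a secreted antagonist of BMP and WNT signals that no list held, lay just outside the threshold, at 6.95, 6.61, 6.85 and 7.08 in RA and 7.69, 7.59, 7.66 and 7.76 in LE135. It was lower on every RA array, at -0.80 (SE 0.10, adjusted p = 0.0518), and passed without LE135 4 (-0.78, adjusted p = 0.0452).

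Cell contact and guidance genes have been tied to positional identity in limbs, and none of 36 measured passed (limma), with 5 higher and 1 lower at an unadjusted p under 0.05. The ephrin receptors EPHA5, EPHA7 and EPHB2 did not overlap, each higher in RA, at 0.49, 0.62 and 0.69 (adjusted p = 0.232, 0.0857 and 0.232). EPHA4 differed by -0.23 (adjusted p = 0.464). The list median was 0.02. Groups did not overlap in 8.33% of its genes, close to the 7.34% of all named genes (3.79% with RA higher). An unadjusted p under 0.05 was reached by 9.70% of the named genes in either direction.

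Of 54 measured extracellular matrix genes, 43 had the higher mean in RA and the median was 0.20. None passed with 8 arrays (limma), and 12 were higher and 2 lower at an unadjusted p under 0.05, against 9.70% of the named genes. Groups did not overlap in 11 (20.4%), 9 higher and 2 lower in RA, against 7.34%. Of the 8639 named genes, 3991 had the higher mean in RA. The mean level of the list was 9.41, 9.36, 9.09 and 9.21 in RA and 9.18, 9.13, 8.93 and 9.19 in LE135, so that RA 3 lay within the LE135 range. The fibrillar collagen genes COL5A1 and COL1A2 differed by 0.53 and 0.29, the blastema matrix glycoprotein TNC by 0.39 and the proteoglycan DCN by 0.20, with adjusted p from 0.200 to 0.420. A second COL5A1 probe set differed by -0.07.

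The 2 matrix genes that did not overlap with RA lower were TNN and MATN4. TNN (tenascin N) ran from 4.20 to 4.57 in RA and was at 5.26, 5.02, 5.19 and 4.84 in LE135, a difference of -0.69 (adjusted p = 0.113). This TNN probe set passed without LE135 4 at -0.77 (SE 0.11, adjusted p = 0.0452). A second TNN probe set differed by -0.28 (adjusted p = 0.250), and by -0.24 without LE135 4, where it did not pass. MATN4, a matrilin of cartilage matrix, was at 7.75, 7.23, 6.97 and 7.05 in RA and at 8.93, 8.40, 8.08 and 8.63 in LE135. Both lay below the DMSO arrays, which ran from 9.29 to 11.55, and the difference of -1.26 (SE 0.22) had an adjusted p of 0.113. None of 32 proteases and protease inhibitors passed (limma), with a median of 0.08. At an unadjusted p under 0.05, 6 were higher and 3 lower, against 9.70% of the named genes in either direction. TFPI2, an inhibitor of serine proteases, differed by 0.74 and its second probe set by 0.79 (adjusted p = 0.117 and 0.146), and the protease PRSS23 differed by -0.81 (adjusted p = 0.210).

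Differences in cell cycle genes were small. Of 57 mitosis genes, 53 had the higher mean in RA, with a median of 0.16, against 3991 of the 8639 named genes and a median of -0.01. None passed (limma), while 21 were higher and 1 lower at an unadjusted p under 0.05, against 9.70% of the named genes in either direction. Groups did not overlap in 13 (22.8%), 12 higher and 1 lower in RA, against 7.34% of the named genes. TOP2A, which untangles chromosomes, was at 9.27, 9.19, 9.14 and 8.93 in RA and at 8.68, 8.75, 8.59 and 8.69 in LE135, all RA arrays higher, at 0.45 (SE 0.08, adjusted p = 0.115). ANLN, needed for the cleavage furrow, differed by 0.37 (SE 0.08, adjusted p = 0.201), the spindle motor KIF11 by 0.31 and the chromosomal passenger BIRC5 by 0.27 (adjusted p = 0.300 and 0.250). Other ANLN probe sets differed by 0.41 and 0.12 and another KIF11 probe set by 0.22, all with overlap. Every RA array lay below every DMSO array for ANLN and KIF11, and above every DMSO array for TOP2A and BIRC5. CDC25B, a phosphatase that starts mitosis and was named after its values were seen, was the 1 gene that did not overlap with RA lower, at -0.41 (adjusted p = 0.412).

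The mean level of the mitosis list was 8.62 to 8.71 in RA and 8.41 to 8.63 in LE135, so the ranges touched through LE135 2 (8.63). Of 50 DNA replication genes, 41 had the higher mean in RA (against 3991 of the 8639 named genes), with a smaller median of 0.07. None passed (limma), while 7 were higher and none lower at an unadjusted p under 0.05, against 9.70% of the named genes in either direction. Groups did not overlap in 4 (8%), all higher in RA. That share was close to the 7.34% of all named genes (3.79% with RA higher). CLSPN, a checkpoint mediator at replication forks, was at 5.56, 5.56, 5.47 and 5.54 in RA and at 5.30, 5.37, 5.18 and 5.29 in LE135, apart by 0.25 (SE 0.06, adjusted p = 0.210). UHRF1, which maintains DNA methylation at forks, differed by 0.21 (adjusted p = 0.350). For CLSPN and UHRF1, every RA and every LE135 array lay below every DMSO array.

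**Figure D4:**
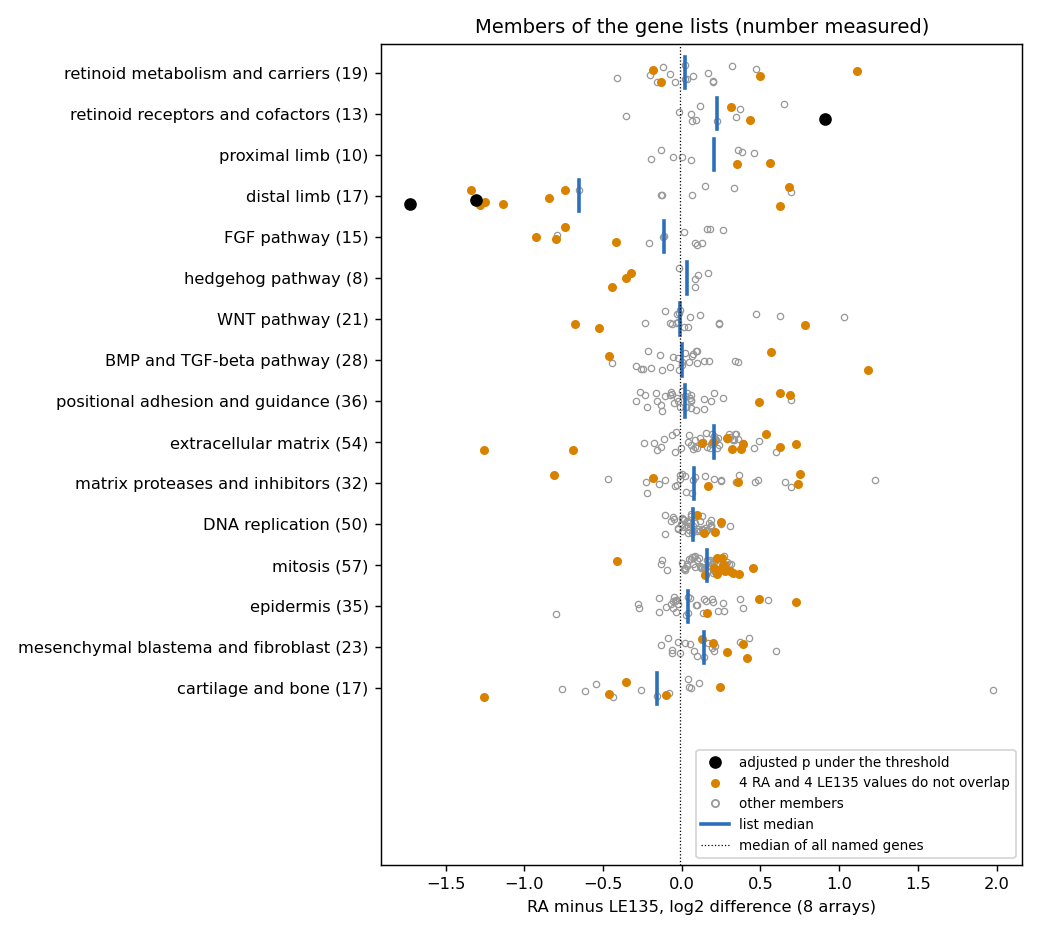
Log2 difference RA minus LE135 (horizontal axis, 8 arrays) of the measured members of 16 gene lists, with the number measured in brackets; black points passed the adjusted threshold, orange points did not overlap between groups, and blue bars mark list medians. The distal limb list has its median at -0.65 with LMO1 and LHX2 at the left, the mitosis list sits tightly around 0.16, and the far right point of the cartilage and bone list is BGLAP at 1.98.

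Lists that mark tissues were described in the same way. Of 17 cartilage and bone genes 11 had the lower mean in RA (against 4648 of the 8639 named genes), with a median of -0.16. None of the 17 passed (limma). At an unadjusted p under 0.05, 2 were higher and 4 lower, against 9.70% of the named genes in either direction. SP7, an osteoblast transcription factor, was at 5.24, 5.17, 5.58 and 5.49 in RA and at 5.60, 5.84, 5.84 and 6.06 in LE135, with the groups barely apart and a difference of -0.46 (adjusted p = 0.256). BGLAP (osteocalcin), named after its values were seen, had the largest difference of any list member, 1.98, but ran from 4.74 to 8.81 in RA and from 4.31 to 5.94 in LE135 (adjusted p = 0.498). RA 1 and RA 2 were the 2 high BGLAP arrays. The mean skeletal muscle level was also highest on those arrays, and its part in the BGLAP values was not tested.

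Of 23 genes of mesenchymal blastema cells and fibroblasts, 17 had the higher mean in RA (median 0.14), and of 35 epidermis genes 20 did (median 0.04). Of the 8639 named genes, 3991 had the higher mean in RA. No gene of either list passed (limma). At an unadjusted p under 0.05 the counts were 7 higher and none lower, and 5 higher and none lower, against 9.70% of the named genes in either direction. TP63, the transcription factor of basal epidermis, was at 8.73, 8.86, 8.55 and 8.43 in RA and at 8.14, 8.40, 8.06 and 7.99 in LE135, again barely apart, with a difference of 0.49 (SE 0.12, adjusted p = 0.216). ITGA6, a basal integrin, did not overlap either (0.72, adjusted p = 0.392), with LE135 4 at 6.81 and the other LE135 arrays from 7.70 to 8.15. In the other direction, 15 epidermis genes had the lower mean in RA, with differences down to -0.80. The epidermis median without LE135 4 was -0.001. PRRX1, a mesenchymal homeobox gene of the limb, differed by 0.10 (95% interval -0.17 to 0.36, adjusted p = 0.826).

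Some genes of large difference belonged to no list above. Among those with RA lower, the Notch ligand DNER was at 6.09, 5.91, 5.98 and 6.01 in RA and at 6.80, 6.82, 7.92 and 7.67 in LE135. It was even across RA and split in LE135, with a difference of -1.31 (SE 0.25, adjusted p = 0.141). VSTM2A, a secreted immunoglobulin-domain protein, differed by -1.07 (adjusted p = 0.0844), ERRFI1, an inhibitor of EGF receptor signalling, by -0.998 (adjusted p = 0.0681) and the NEDD8-conjugating enzyme UBE2M by -0.92 (adjusted p = 0.0857). With RA higher, the LIM protein CSRP2 differed by 1.16 (adjusted p = 0.241), the adaptor BCAR3 by 0.92, the deubiquitinase USP9X by 0.91, the centrosomal protein NINL by 0.89, the vesicle fusion protein NAPA by 0.89, FIBIN by 0.87, the kinase SLK by 0.83, the cytoskeletal linker DST by 0.82 and the binding protein IGFBP6 by 0.81, with adjusted p from 0.149 to 0.310. CSRP2 and BCAR3 had second probe sets at -0.30 and -0.05, and a second NINL probe set was at 0.82. USP9X and SLK had probe sets of higher mean level that overlapped, at 0.16 and 0.09, and another SLK probe set was at 0.58. Other DST probe sets differed by 0.31 to 0.66. LE135 4 was the lowest LE135 array for CSRP2, USP9X, FIBIN, SLK and DST as named here. Without it they differed by 0.89, 0.67, 0.69, 0.64 and 0.60. BCAR3, NINL and IGFBP6 differed by 0.85, 0.87 and 0.73 without LE135 4, and NAPA by 1.08. None of these genes with RA higher passed without it.

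Leaving out LE135 4 widened the set that passed the threshold. With RA 1 to 4 against LE135 1 to 3, 48 probe sets (0.240%) passed, 28 higher (0.140%) and 20 lower (0.0998%) in RA, and 38 of them by more than 1.5-fold. All 10 from the 8 arrays were among the 48. All 48 had the same direction with 8 arrays, where 37 of them did not overlap between groups, against 6.93% of all probe sets. The 48 were picked on 7 of these same 8 arrays, so neither count is independent support. At an unadjusted p under 0.05 the count was 2505 (12.5%). Of the 48, 28 carried a gene symbol, 15 higher and 13 lower, and the adjusted p of the 38 added probe sets had been between 0.0518 and 0.973 with LE135 4 in.

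Genes that passed in this fit and rose in RA included some in which LE135 4 stood on the RA side. RHAG, a membrane protein of red blood cells, was at 7.61, 7.70, 7.45 and 7.44 in RA, at 6.45, 6.34 and 6.16 in LE135 1 to 3 and at 8.03 in LE135 4. It rose by 1.23 (SE 0.09, adjusted p = 0.00795) without that array and differed by 0.80 (adjusted p = 0.537) with it. DDIT4, a stress-induced inhibitor of mTOR signalling, was at 8.24 to 8.83 in RA, at 7.12 to 7.32 in LE135 1 to 3 and at 9.49 in LE135 4, and rose by 1.22 (SE 0.14, adjusted p = 0.0228) without it, against a difference of 0.66 (adjusted p = 0.713) with it. TGFBR2, the type II TGF-beta receptor, was at 6.24 to 6.59 in RA, at 5.71 to 5.82 in LE135 1 to 3 and at 6.86 in LE135 4, and rose by 0.69 (SE 0.09, adjusted p = 0.0452) without it, against a difference of 0.42 (adjusted p = 0.637) with it. DNAJC9, a histone cochaperone, rose by 1.10 and PDZRN3, a ubiquitin ligase, by 0.79 (adjusted p = 0.0279 and 0.0421), with LE135 4 the LE135 array closest to RA in both, and a second DNAJC9 probe set differed by 0.11.

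The erythrocyte list held RHAG and 7 other measured genes. Their mean level was 5.29, 5.31, 5.29 and 5.26 in RA and 5.07, 4.99, 4.75 and 5.49 in LE135. ALAS2, which starts haem synthesis in red cells, was at 8.18 to 8.57 in RA, 7.79 and 7.26 in LE135 1 and 2, lowest in LE135 3 and 9.89 in LE135 4, while the membrane genes SLC4A1 and ANK1 and the factor TAL1 lay between 3.82 and 4.43 on all 8 arrays. No haemoglobin gene of the list had a named probe set. The part of blood cells in the RHAG result was not tested.

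In CYP26B1, above, and in DYNC1H1, LE135 4 lay farther from RA than the rest of LE135 did. DYNC1H1, the heavy chain of cytoplasmic dynein, was at 8.20, 7.94, 7.93 and 7.92 in RA, at 7.22, 7.24 and 7.26 in LE135 1 to 3 and at 5.39 in LE135 4. It rose by 0.76 (SE 0.08, adjusted p = 0.0195) without that array and differed by 1.22 (adjusted p = 0.362) with it, but 2 other DYNC1H1 probe sets differed by 0.04 and -0.11 in the 7-array fit. DMSO 4 was the lowest DMSO array for both genes, at 6.14 for CYP26B1 and 4.23 for DYNC1H1.

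Genes that fell in this fit, beside LMO1, LHX2, SPRY1, SOSTDC1, TNN and the second ETV4 probe set, were led by ALOX5, the 5-lipoxygenase of leukotriene synthesis. It was at 4.61, 4.89, 4.42 and 4.59 in RA and at 5.47, 5.75 and 5.48 in LE135 1 to 3 (5.26 in LE135 4), and fell by 0.94 (SE 0.12, adjusted p = 0.0421). A second ALOX5 probe set, of higher mean level, differed by -0.45 in this fit and did not pass (adjusted p = 0.251). ERRFI1 fell by 0.91, the ammonium transporter RHCG by 0.80, the pseudouridine synthase TRUB2 by 0.75 and the membrane protein TMEFF2 by 0.68 (adjusted p = 0.0452, 0.0452, 0.0452 and 0.0228). In TRUB2 and TMEFF2, LE135 4 lay among the RA arrays, at 6.50 and 5.32. Of 2 other RHCG probe sets, 1 differed the opposite way, by 0.54 without LE135 4, and the other by -0.67, and neither passed.

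The 7 further named genes past this threshold were SLITRK6 (-0.56), ZNF608 (-0.44), CHSY1 (0.44), MTSS1 (0.53), LPIN2 (0.57), IGFBP5 (0.58) and ENTPD2 (0.59), which complete the count and were named with their values already known. With LE135 4 in, ENTPD2 differed by 0.33 (adjusted p = 0.688). CHSY1 makes chondroitin sulfate chains, and IGFBP5 binds insulin-like growth factors. With 1 probe set per gene, 22 of the 8639 named genes (0.255%) passed. Of the described lists, this fit added CYP26B1 to retinoid metabolism and TNN to the matrix list, while SPRY1 was a member of both the distal and the FGF lists, and no mitosis, replication, proximal, WNT, hedgehog or guidance gene passed (limma) with the probe set of highest mean standing for each gene. In the BMP and TGF-beta list the TGFBR2 probe set of highest mean differed by 0.39 (adjusted p = 0.386) in this fit, and the TGFBR2 probe set that passed was the other one.

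**Figure D5:**
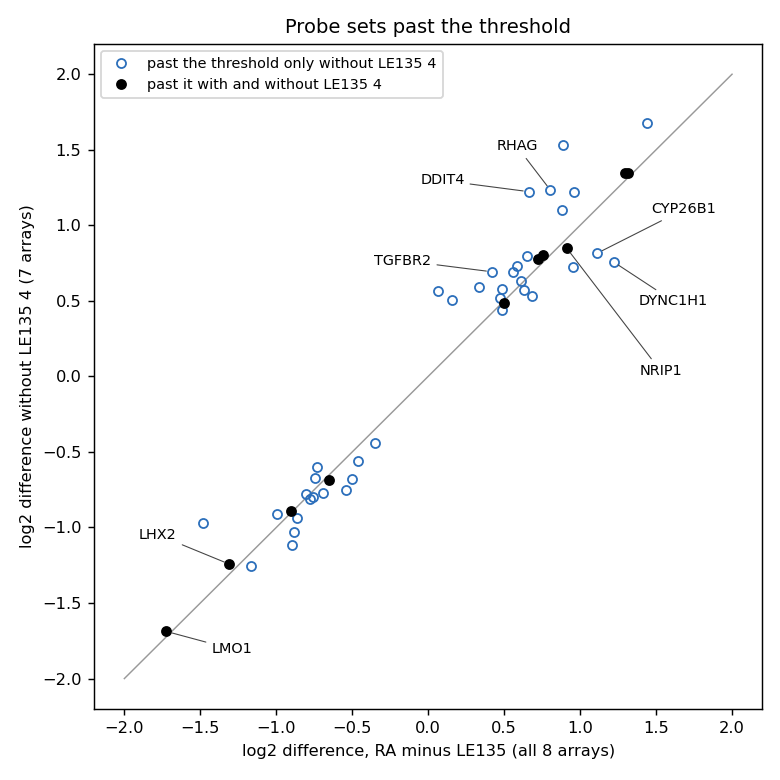
Log2 difference RA minus LE135 of the 48 probe sets past the threshold without LE135 4, with all 8 arrays on the horizontal axis and with 7 arrays on the vertical axis; the line marks equal values. Filled points (10) passed in both fits and lie near the line, while DDIT4 and RHAG lie above it and DYNC1H1 and CYP26B1 below it.

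Which arrays were used decided how many probe sets passed. Leaving out 1 array at a time from the 8, the counts were 0 without RA 1, 1 without RA 2, 4 without RA 3, 2 without RA 4, 0 without LE135 1, 0 without LE135 2, 2 without LE135 3 and 48 without LE135 4. Where the count was 0 (limma), an unadjusted p under 0.05 was reached by 1299 probe sets without RA 1, 1648 without LE135 1 and 2071 without LE135 2. From the 7 arrays left without LE135 4, further omissions gave 22 without RA 1, 13 without RA 2, 51 without RA 3, 10 without RA 4, 6 without LE135 1, 0 without LE135 2 (2169 unadjusted) and 14 without LE135 3.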

How the data were processed

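Affymetrix arrays of 12 axolotl blastema samples were measured, 4 per treatment, and the 8 of RA and LE135 were compared. The deposited values are log2 levels made with RMA, per the submitters' processing notes, with no version given in the sources used here. The 45 control probe sets were left out, and no other filter was applied. A linear model with 1 mean per drug was fitted to the 8 arrays in limma 3.58.1 (R 4.3.3), with moderated tests, Benjamini-Hochberg adjustment over 20035 probe sets and a threshold of 0.05, and was repeated without LE135 4. The code was tested on simulated data. The number of arrays limits the precision.

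Symbols came from the platform's annotation, and all 8639 were found in the species' RefSeq gene table. The probe set of highest mean stood for a gene in the lists. The comparison, the 27 gene lists (973 genes from general knowledge, 627 measured) and the naming rule were chosen with earlier results of these data known, and lists were described by counts and medians without a set test. The rule named all genes past the threshold, the 12 largest non-overlapping differences each way with an unadjusted p under 0.01, the 10 largest each way past the threshold without LE135 4, 25 chosen genes (19 measured), up to 4 members per described list with the smallest p, and up to 2 unnamed probe sets each way. It took 99 in all. The probe set axo01795-f_at was added after its values were seen. Alternatives changed the arrays, the variance model, the normalization, the filter, the replicate block and the probe set. The replicate numbers were not treated as pairs of RA and LE135 samples. Deviations of arrays of the same number correlated at 0.21, -0.17, 0.26 and -0.17. RA 1 and RA 2 correlated with LE135 1 and LE135 4 at 0.13 to 0.22. RA 3 and RA 4 correlated with LE135 2 and LE135 3 at 0.16 to 0.26, and the remaining combinations were negative. A grouping shared by the drugs was not tested. Deviations of LE135 and DMSO arrays of the same number, which are not compared here, correlated at 0.24, 0.13, 0.32 and 0.61. For LE135 1 to 3, a DMSO array of another number correlated more. The values were 0.39 (LE135 1 with DMSO 2), 0.27 (LE135 2 with DMSO 1) and 0.37 (LE135 3 with DMSO 1). The labels name no array batch.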

Additional observations from a re-analysis of the deposited data

Results flagged for a closer look

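Among the 99 named genes and probe sets, each drug's 4 arrays were screened for 1 array far from the other 3 (Dixon's ratio above its 95% critical value), and 12 of 198 groups met that mark, where chance alone gives about 1 in 20. LE135 4 accounted for 8 of the 12. Of these 8, DDIT4, RHAG, TGFBR2, DNAJC9 and DYNC1H1 were named because they passed without LE135 4, a choice that favours genes in which that array stands apart, so the 8 say nothing further about it.

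LE135 4 was the highest LE135 array for DDIT4, at 9.49 against 7.12 to 7.32 on the others, for RHAG at 8.03 against 6.16 to 6.45, for TGFBR2 at 6.86 against 5.71 to 5.82, and for DNAJC9 at 6.06 against 5.14 to 5.27. It was the lowest for DYNC1H1, at 5.39 against 7.22 to 7.26, for DST at 6.34 against 7.15 to 7.30, for NCOR1 at 7.95 against 8.71 to 8.82, and for DLX6 at 6.80 against 6.97 to 7.00.

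Within RA, RA 1 was the highest array for CYP26B1, at 9.83 against 9.51 to 9.56, and for DYNC1H1, at 8.20 against 7.92 to 7.94. RA 2 was the lowest for ETV4, at 8.06 against 8.40 to 8.41, and RA 4 the highest for FIBIN, at 7.32 against 6.82 to 6.90.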

How the results depend on the processing

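The count of 10 probe sets was 10 with a trended robust prior, 11 with a filter at a mean of 5, and 13 with repeated quantile normalization or centred medians. It was 4 when all 3 treatments shared the spread (3 of the 10), 143 with array weights, which gave LE135 4 a weight of 0.198, and 1 without moderation, which was none of the 10 (adjusted p = 0.102 for LMO1 and 0.0835 for LHX2). With the replicate number as a block it was 2, and 1 of the 10, LHX2, passed. Leaving out 1 array gave 0 to 48. The count of 48 was 58 with array weights, 47 with the filter, 52 with quantile normalization and 50 with centred medians, but 10 with a shared spread, 119 with a trended robust prior, 2 without moderation, and 12 with the replicate block (7 of the 48). Leaving out 1 further array gave 0 to 51. NEBL and PIF1 did not pass when all treatments shared the spread (adjusted p = 0.0825 and 0.198), and LMO1, LHX2 and NRIP1 did (adjusted p = 0.00518, 0.0185 and 0.0184). Over the 99 named genes and probe sets no omission of an array turned a direction. Where the groups did not overlap, which the naming rule asked of some of them, no omission could have done so. Array weights turned RARA to -0.013. Other probe sets of the same gene went the other way for RHCG (0.65), COL5A1 (-0.0718), EPHA7 (-0.18), PIF1 (-0.0102 and -0.0146), BCAR3 (-0.0489), CSRP2 (-0.30) and DYNC1H1 (-0.0033). The cause of these differences was not tested. With 4 arrays a drug, and 1 that stood apart, the counts are small and move with single arrays, and levels near 3 to 4 leave little room for a lower value.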

Other observations

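Gene groups outside the results above had medians from -0.15 to 0.07. Their single members ranged more widely, from -0.46 (inflammation and interferon) to 1.74 (endothelium). Of all named genes, 9.70% reached an unadjusted p under 0.05 in either direction. None of 43 oxidative phosphorylation genes passed (limma) or reached an unadjusted p under 0.05, and their median was -0.02, between -0.15 and 0.10. None of 35 stress and unfolded protein response genes passed (median 0.00, with 2 higher at an unadjusted p under 0.05), and none of 21 inflammation and interferon genes did (median -0.05, 2 higher). Of 24 apoptosis genes none passed with 8 arrays (median -0.02, 1 higher at an unadjusted p under 0.05), and DDIT4 passed without LE135 4. Among 17 macrophage and neutrophil genes the median was -0.15, none passed and 2 were lower at an unadjusted p under 0.05.

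No gene passed among 34 of skeletal muscle (median 0.07), 14 of endothelium (0.01), 15 of Schwann cells and nerve (0.01), 5 of pigment cells (-0.06) or 2 of lymphocytes (0.02), where 2, 2, 1, 0 and 0 had an unadjusted p under 0.05. Among 8 erythrocyte genes the median was -0.02, none had an unadjusted p under 0.05, and RHAG passed without LE135 4.

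Some probe sets fell into separate levels inside a drug group. In 8 probe sets RA 1 and RA 2 lay within 0.5 of each other, as did RA 3 and RA 4, with a gap of more than 2 between the pairs. The widest was axo31602-f_at, at 4.48 and 4.49 on RA 1 and RA 2 and at 11.74 and 11.59 on RA 3 and RA 4, while LE135 ran from 11.41 to 11.91 and DMSO 3 was at 4.68. The probe set axo29609-f_at had the same arrangement, with 6.18 and 6.65 against 13.13 and 13.01, and DMSO 3 at 6.85. ADIPOQ, a fat cell hormone, was at 6.53 and 6.59 against 4.01 and 4.41, and SMPX, a small muscle protein, at 7.72 and 8.09 against 5.51 and 5.96.

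In 16 probe sets LE135 4 lay more than 2 from all the other 7 arrays of the comparison. On axo00020-f_at it was at 9.81 against 3.79 to 4.42, on axo23566-f_at at 11.50 against 4.40 to 5.94, and for UMOD at 6.21 against 8.22 to 10.20. In 6 of the 16, DMSO 4 also lay more than 2 from the other DMSO arrays and in the same direction, at 14.10 against 4.28 to 4.40 on axo23566-f_at and at 6.41 against 9.57 to 10.11 for UMOD. These probe sets were singled out after their values were seen, and no cause was tested.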
